A study of Mus musculus with 7 samples.

Results

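The genes described here are the nuclear-encoded subunits of the respiratory chain and of the ATP synthase, together with the complex I assembly factors that carry the same symbol prefix. They were taken from the array's probe annotation as every gene whose symbol begins with Nduf, Uqcr or Atp5, or with Cox followed by 4, 5, 6, 7 or 8, without pseudogenes. This rule found 82 of the 19057 genes that have a probe with a single symbol. Of these, 34 belonged to complex I, 8 were complex I assembly factors, 7 belonged to complex III, 17 to complex IV and 16 to the ATP synthase. Ndufa4 was counted with complex IV, of which its product is a subunit, in spite of its name. Gene expression was measured with Illumina mouse WG-6 v2.0 BeadChips in bone marrow cells enriched on a Percoll gradient and isolated with an antibody to CD41, called megakaryocytes (MKs) here. The cells came from male C57BL/6J mice, 10 to 12 weeks old, which carried osmotic pumps for 24 h. The pumps held 25.8 mM 5-HT in the treated mice (4 arrays) and saline in the control mice (3 arrays). Each array held RNA of marrow pooled from 3 to 4 mice, so the spread between arrays is a spread between pools. The authors had left out another saline sample as an outlier.

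The respiratory chain of the inner mitochondrial membrane passes electrons from NADH and succinate to oxygen and pumps protons as it does so. Complex I (NADH dehydrogenase), complex III (cytochrome bc1) and complex IV (cytochrome c oxidase) are the pumps, and the ATP synthase lets the protons flow back through its membrane part to drive ATP synthesis in its F1 head. Most subunits are encoded in the nucleus and imported, and the remaining ones, at the core of the pumps and in the proton channel, are encoded by mitochondrial DNA. Platelets, the product of MKs, carry mitochondria and use both glycolysis and oxidative phosphorylation.

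The values are log2 signals that the authors shifted to the same median in every array, 6.68 over all 45281 probes. The isolated cells held transcripts of several lineages. Of 12 MK markers, 10 were on the array and 9 passed the limit on mean signal described below. Itgb3, which encodes the integrin partner of CD41, did not pass and was near the median of all probes with a mean of 6.82. Itga2b, which encodes CD41, passed with a mean of 10.71. All 9 had a log2 fold change (5-HT minus saline) above 0, with a median of 0.79, and overlapping groups. The median log2 signal of the 9 MK markers was 11.90, 9.27, 10.79 and 12.29 in 5-HT replicates 1 to 4, against 11.93, 9.17 and 8.86 in saline replicates 1 to 3. The median of 12 granulocyte markers was 14.22 to 14.64 in the 5-HT arrays and 13.90 to 14.48 in the saline arrays. In 4 of these 12, all 5-HT arrays lay above all saline arrays, against 6.29% of all tested genes. The log2 fold change was above 0 in 9 of the 12 and below 0 in 3, with a median of 0.30. Of all tested genes, 91.4% were above 0, with a median of 0.42. Epx, on the same list, did not pass the limit. It had 9.64, 6.81, 6.96 and 8.09 in the 5-HT arrays, against 7.07, 6.64 and 6.70 in the saline arrays, with overlapping groups. The granule protein gene Prg2, a marker of eosinophils, was the one of the 12 that passed a 1.5-fold change with an unadjusted p under 0.05, against 5.75% of all tested genes. Prg2 had 14.02, 10.72, 10.75 and 12.56 in the 5-HT arrays, against 10.25, 8.86 and 9.49 in the saline arrays. Its difference of 2.48 on the log2 scale (SE 0.58, adjusted p = 0.562 by limma) had the smallest p of all tested genes. The median of 3 erythroid markers was 7.42 to 9.03 in the 5-HT arrays and 8.33 to 9.06 in the saline arrays. Their log2 fold changes were below 0 in all 3, with a median of -0.265, while 8.64% of all tested genes were below 0. The median of 2 B lineage markers was 8.56 to 9.98 in the 5-HT arrays and 8.52 to 9.10 in the saline arrays. Their log2 fold changes were above 0 in all 2, with a median of 0.55. The part of these cell types in the results below was not tested. In such a mixture, fewer cells of a type and less RNA per cell cannot be told apart.

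Of the 82 genes, 70 passed the limit on mean signal (a mean over all arrays of 7.51 or more) and were compared between the groups with limma in a fit over all genes that passed. No member differed between 5-HT and saline MKs at an adjusted p under 0.05 (Benjamini-Hochberg over all tested genes), where 0% of all tested genes did, and the adjusted p of the members ran from 0.562 to 0.993. At an unadjusted p under 0.05, limma called 0 of the 70 members, against 5.75% of all tested genes. With a fold change above 1.5 added, it again called 0 members, against 5.74% of the tested genes with higher and 0.0185% with lower signals after 5-HT. The smallest unadjusted p of a member was 0.0556, for Ndufa8.

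The log2 fold change, 5-HT minus saline and given below with its standard error (SE) from limma, was above 0 in 65 of the 70 members, with 91.4% of all tested genes above 0, and below 0 in 5, with 8.64% of all tested genes below 0. It ran from -0.09 to 0.75 with a median of 0.30, beside a median of 0.42 over all tested genes, and 24 of the 70 members lay above that median of all tested genes. These directions hold for the authors' scaling. After quantile normalization, which gives every array the same distribution of signals, the median was -0.11 for the members and 0.08 for all tested genes, and 22 members were above 0 and 48 below. As deposited, a fold change above 1.5 was found in 11 of 70 members, or 15.7%, against 27.3% of all tested genes.

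**Figure D1:**
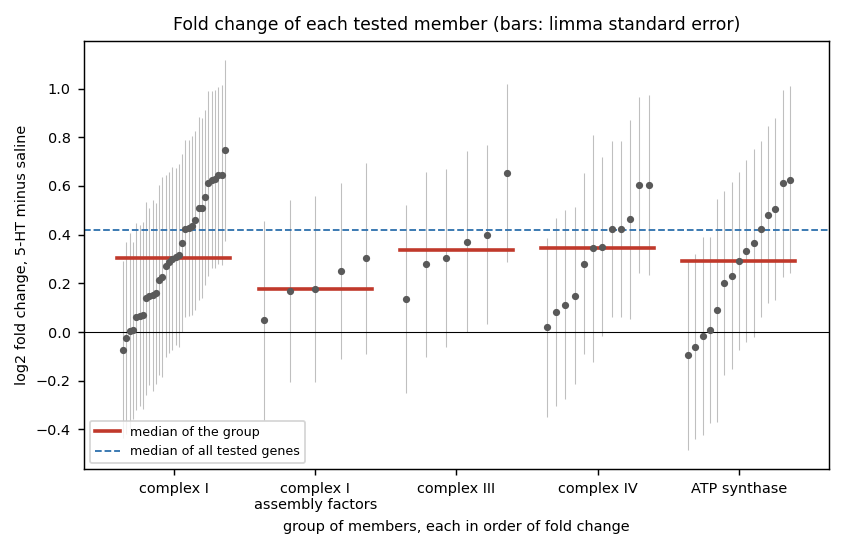
Log2 fold change (5-HT minus saline, vertical axis) of each of the 70 tested members, grouped by complex on the horizontal axis. Points are genes with limma standard errors (SE) as grey bars, red lines are group medians (0.18 to 0.35) and the dashed line is the median of all tested genes, 0.42, which lies above every group median.

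Promoter sequence was examined because genes of the respiratory chain are known targets of nuclear respiratory factor 1 (NRF1), of the ETS factor GABPA and of YY1. RefSeq promoter windows of 250 bases before to 50 bases after the start (build GRCm38.p6) were found for 69 of the 82 genes, and for 61 of the 70 tested ones, in 66 windows. The NRF1 motif, searched on both strands as GCGCA and GCGC with any base between them, was found in 16 of the 66 windows of the tested members (24.2%), in 10.8% of 5711 windows of all tested genes and in 4.6% of all 32851 windows. The GABPA motif CCGGAAGT, on both strands, was found in 4 of the 66 (6.06%), in 9.53% of the windows of all tested genes and in 3.89% of all windows. The YY1 motif AAGATGGCG, on both strands, was found in 7 of the 66 (10.6%), in 3.2% of the windows of all tested genes and in 1.4% of all windows. These are matches of letters and say nothing of binding. The 120 bases that precede the start are shown for 6 members that hold a motif there, 5' to 3' on the strand of the gene, with the motif in capitals. Ndufa11, Cox6a1 and Ndufb4 hold the NRF1 motif and Atp5j the YY1 motif as they were searched, while Ndufa8 holds the NRF1 motif and Uqcrh the GABPA motif on the opposite strand. The set spans the largest and the smallest fold change of complex I, those of Ndufa8 and Ndufb4.
Ndufa8, chr2:36049339-36049458, minus strand: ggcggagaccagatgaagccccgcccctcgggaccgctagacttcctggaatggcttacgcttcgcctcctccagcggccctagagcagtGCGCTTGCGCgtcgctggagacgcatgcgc
Ndufa11, chr17:56717642-56717761, plus strand: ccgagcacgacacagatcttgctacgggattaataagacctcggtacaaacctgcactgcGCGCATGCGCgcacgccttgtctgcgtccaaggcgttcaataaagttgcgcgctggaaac
Cox6a1, chr5:115348959-115349078, minus strand: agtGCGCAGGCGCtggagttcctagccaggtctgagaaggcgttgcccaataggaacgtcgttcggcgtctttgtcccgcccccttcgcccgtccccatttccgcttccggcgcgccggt
Ndufb4, chr16:37654369-37654488, minus strand: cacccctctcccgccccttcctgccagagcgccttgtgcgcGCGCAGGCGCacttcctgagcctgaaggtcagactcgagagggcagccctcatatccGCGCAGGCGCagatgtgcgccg
Atp5j, chr16:84834977-84835096, minus strand: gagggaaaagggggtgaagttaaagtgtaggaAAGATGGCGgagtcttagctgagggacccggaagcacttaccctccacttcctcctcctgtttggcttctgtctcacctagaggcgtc
Uqcrh, chr4:116075071-116075190, minus strand: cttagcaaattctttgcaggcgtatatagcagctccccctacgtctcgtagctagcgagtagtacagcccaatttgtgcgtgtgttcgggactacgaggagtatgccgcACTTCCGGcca

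Complex I has an arm of flavin and iron-sulfur subunits that takes electrons from NADH, built on core subunits shared with bacteria, and a shell of supernumerary subunits. Of 6 nuclear-encoded core subunits found by the rule, 5 were tested. Ndufv1, the core subunit that binds NADH and flavin, had log2 signals of 12.10, 11.45, 11.88 and 12.02 in the 5-HT arrays, against 11.04, 11.27 and 11.40 in the saline arrays. Ndufs8, a core subunit that carries iron-sulfur clusters, had 11.51, 10.91, 11.53 and 11.45 in the 5-HT arrays, against 10.69, 10.54 and 10.89 in the saline arrays. In both genes all 5-HT arrays lay above all saline arrays, and 5-HT replicate 2 was the lowest of its group, close to the highest saline array. The log2 fold change was 0.63 for Ndufv1 (SE 0.36, adjusted p = 0.562 by limma) and 0.64 for Ndufs8 (SE 0.36, adjusted p = 0.562). The log2 fold changes of the other tested core subunits, Ndufs7, Ndufs3 and Ndufv2, were 0.46, 0.21 and 0.29. The median of the 5 core subunits was 0.46 and that of the 27 tested supernumerary subunits 0.30, a difference that was not tested.

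Among supernumerary subunits, Ndufa8 had the largest log2 fold change, and its NRF1 motif is shown above. It had 11.76, 10.98, 11.63 and 11.72 in the 5-HT arrays, against 11.03, 10.64 and 10.66 in the saline arrays. The groups overlapped, since 5-HT replicate 2 lay below saline replicate 1. Ndufa8 averaged 11.52 ± 0.37 (SD, n = 4) in 5-HT MKs and 10.78 ± 0.22 (SD, n = 3) in saline MKs, a difference of 0.75 on the log2 scale (SE 0.37, adjusted p = 0.562 by limma). Ndufs4, a subunit whose loss causes Leigh-like disease in humans and mice, had 11.77, 10.88, 10.98 and 11.31 in the 5-HT arrays, against 10.51, 10.67 and 10.59 in the saline arrays. Its groups did not overlap, and its difference was 0.65 on the log2 scale (SE 0.37, adjusted p = 0.562 by limma). Ndufa11, a subunit of the membrane arm, had 10.79, 10.59, 10.50 and 10.79 in the 5-HT arrays, against 9.90, 10.32 and 10.12 in the saline arrays, again without overlap (log2 fold change 0.55, SE 0.36). Ndufa7 and Ndufb7 were the remaining members of complex I without overlap. Ndufa7 had 11.21, 10.76, 10.63 and 10.75 in the 5-HT arrays, against 10.29, 10.45 and 10.49 in the saline arrays, and Ndufb7 had 8.95, 8.35, 8.30 and 8.63 in the 5-HT arrays, against 8.23, 8.07 and 8.10 in the saline arrays. In both, 5-HT replicate 1 was the highest array, and their log2 fold changes were 0.43 and 0.42.

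At the other end of complex I were Ndufb4 and Ndufb2, both subunits of the membrane arm. Ndufb4, which holds the NRF1 motif at 2 places in the stretch shown above, had 8.58, 8.19, 7.98 and 8.13 in the 5-HT arrays, against 8.34, 8.49 and 8.05 in the saline arrays. Ndufb2 had 9.19, 8.68, 8.23 and 8.82 in the 5-HT arrays, against 8.06, 8.92 and 9.28 in the saline arrays. The values of the groups were interleaved in both, and their log2 fold changes were -0.07 (SE 0.36) and -0.02 (SE 0.39).

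The 8 complex I assembly factors are not part of the finished enzyme, and 5 of them were tested. Ndufaf1, a factor for the membrane arm, averaged 8.74 ± 0.56 (SD, n = 4) in 5-HT MKs and 8.44 ± 0.34 (SD, n = 3) in saline MKs, a difference of 0.30 on the log2 scale (SE 0.39, adjusted p = 0.65 by limma). Ndufaf3 had 8.03, 7.57, 7.52 and 7.51 in the 5-HT arrays, against 7.42, 7.36 and 7.44 in the saline arrays. Its groups did not overlap, but all 5-HT arrays other than replicate 1 lay just above the saline values, and its log2 fold change was 0.25 (SE 0.36). Its saline values all lay under the limit on mean signal. Ndufaf2 and Ndufaf5 had log2 fold changes of 0.18 and 0.17. Ndufaf4 had 8.68, 7.82, 7.92 and 8.65 in the 5-HT arrays, against 9.05, 7.59 and 8.02 in the saline arrays, so that saline replicate 1 was the highest of all arrays. Its log2 fold change was 0.05 (SE 0.41), while a dimmer probe of the same gene had -0.37, with every 5-HT array below every saline array. The 5 factors had a median of 0.18, and none lay above the median of all tested genes.

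Complex III hands electrons from ubiquinol to cytochrome c. Its core protein Uqcrc1 had 11.98, 11.47, 12.10 and 12.13 in the 5-HT arrays, against 11.39, 11.17 and 11.24 in the saline arrays, without overlap. The log2 fold change of 0.65 (SE 0.36, adjusted p = 0.562 by limma) was the largest of the complex. The second core protein, Uqcrc2, had 12.00, 10.99, 10.99 and 11.41 in the 5-HT arrays, against 11.24, 10.82 and 11.15 in the saline arrays. There 5-HT replicates 2 and 3 lay among the saline values, and the log2 fold change was 0.28 (SE 0.38). Of the small subunits, Uqcr10 had a difference of 0.40 on the log2 scale (SE 0.37), Uqcrh, the hinge protein at the cytochrome c docking site, 0.37 (SE 0.37) and Uqcrq 0.14 (SE 0.39), each with overlapping groups. The median of the 6 tested members was 0.34. Cyc1, the gene of cytochrome c1 in this complex, has a symbol outside the rule and is given with the electron carriers below.

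Complex IV reduces oxygen to water, and several of its nuclear-encoded subunits exist as a widely expressed and a tissue-restricted isoform. Cox6b1, which faces the intermembrane space, had 12.95, 12.48, 13.01 and 12.66 in the 5-HT arrays, against 12.18, 12.09 and 12.24 in the saline arrays. Cox6a1 had 12.56, 12.05, 12.72 and 12.61 in the 5-HT arrays, against 12.25, 11.72 and 11.67 in the saline arrays. The groups of Cox6b1 did not overlap, while for Cox6a1 saline replicate 1 lay above 5-HT replicate 2. Both had a difference of 0.61 on the log2 scale (SE 0.36 for Cox6b1 and 0.37 for Cox6a1, adjusted p = 0.562 for both by limma). Cox5b, a zinc-binding subunit on the matrix side, also showed no overlap, with 13.19, 12.62, 12.66 and 12.98 in the 5-HT arrays, against 12.43, 12.40 and 12.49 in the saline arrays, and a difference of 0.42 on the log2 scale (SE 0.36). Cox7a2l is known as a factor for supercomplexes of complexes III and IV, a role that was not examined in these mice. It had 10.65, 9.49, 8.86 and 9.88 in the 5-HT arrays, against 9.29, 9.23 and 9.25 in the saline arrays. Its saline values were nearly equal while its 5-HT values lay on both sides of them, and its log2 fold change was 0.46 (SE 0.41). Ndufa4 and Cox7b were at the low end with 0.08 (SE 0.39) and 0.02 (SE 0.37).

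Of the tissue-restricted isoforms, 5 did not pass the limit on mean signal. Cox4i2 (a lung isoform), Cox7a1 and Cox8b (heart and muscle isoforms), Cox7b2 and Cox8c (testis isoforms) stayed near the median of all probes, the highest of them, Cox7a1, between 6.76 and 6.99. Of the widely expressed counterparts, Cox4i1 had 12.82 to 13.63 in the 5-HT arrays and 12.63 to 12.94 in the saline arrays (log2 fold change 0.35), and Cox7a2 had 9.18 to 9.67 in the 5-HT arrays and 8.93 to 9.34 in the saline arrays (log2 fold change 0.15). Cox6b2, known from testis, passed the limit and had 8.07, 7.71, 8.12 and 7.50 in the 5-HT arrays, against 7.42, 7.41 and 7.45 in the saline arrays. The difference was 0.42 on the log2 scale (SE 0.36) without overlap. All of its saline values, and that of 5-HT replicate 4, lay under the limit of 7.51. Cox6a2, the heart and muscle isoform, had 9.07, 6.79, 7.37 and 7.41 in the 5-HT arrays, against 8.09, 6.83 and 7.03 in the saline arrays. It was thus highest in 5-HT replicate 1 and saline replicate 1, and its log2 fold change was 0.34 (SE 0.47).

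The largest log2 fold changes of the ATP synthase were those of Atp5d, Atp5j and Atp5b. Atp5d, the delta subunit of the central stalk, had 11.59, 10.46, 11.05 and 11.28 in the 5-HT arrays, against 10.81, 10.16 and 10.44 in the saline arrays, a difference of 0.63 on the log2 scale (SE 0.38, adjusted p = 0.562 by limma). Atp5j, coupling factor 6 of the peripheral stalk and the gene with the YY1 motif above, had 11.34, 10.64, 10.41 and 11.40 in the 5-HT arrays, against 10.38, 10.02 and 10.61 in the saline arrays, a difference of 0.61 on the log2 scale (SE 0.38). Atp5b, the catalytic beta subunit, had 14.21, 13.43, 13.92 and 14.26 in the 5-HT arrays, against 13.75, 13.23 and 13.37 in the saline arrays, a difference of 0.51 on the log2 scale (SE 0.37). In each of these, 5-HT replicate 2 or 3 lay below the highest saline array, and none of the 15 tested members of the ATP synthase was without overlap. Atp5a1, the alpha subunit that alternates with beta in the F1 head, had a difference of 0.01 on the log2 scale (SE 0.38), and Atp5e, the epsilon subunit, -0.02 (SE 0.41). Atp5g3, a gene for the c-ring, had 13.59, 12.30, 12.54 and 12.93 in the 5-HT arrays, against 12.94, 12.63 and 13.23 in the saline arrays, a difference of -0.09 on the log2 scale (SE 0.39). Atp5md, a small membrane subunit, had -0.06 (SE 0.38).

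In all, every 5-HT array lay above every saline array in 11 of the 70 members, or 15.7%, against 6.29% of all tested genes, and below in 0, against 0.13% of all tested genes. By complex these were 6 of 32 in complex I, 1 of 5 assembly factors, 1 of 6 in complex III, 3 of 12 in complex IV and 0 of 15 in the ATP synthase. In Ndufaf3 and Cox6b2 all saline values lay under the limit on mean signal of 7.51, so both passed it through their 5-HT values. The limit thus favors such genes among those near it. The counts of members without overlap hold for the authors' scaling and were not repeated under another. Of the members without overlap, Ndufa7 (-0.055) and Cox5b (-0.012) had a log2 fold change below 0 after quantile normalization. When scaled to the tested genes, Ndufb7 (-0.012), Cox6b2 (-0.013) and Ndufaf3 (-0.19) were below 0 as well. As deposited, the spread among the saline arrays was small in the members, with a median SD of 0.22 beside 0.42 over all tested genes. In 5-HT MKs the median SD was 0.39 beside 0.52. The standard errors (SE) given, 0.36 to 0.47, are moderated by limma toward the spread of all tested genes. Without the limit on mean signal, limma called 15 of 82 members at an unadjusted p under 0.05, against 5.36% of 19057 genes, and 0 at an adjusted p under 0.05. These shares are not alike, since the 19057 include the dim genes that the limit removed. Their median log2 fold change was 0.04, beside 0.42 over the tested genes, and the standard errors were moderated toward the spread of all 19057.

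**Figure D2:**
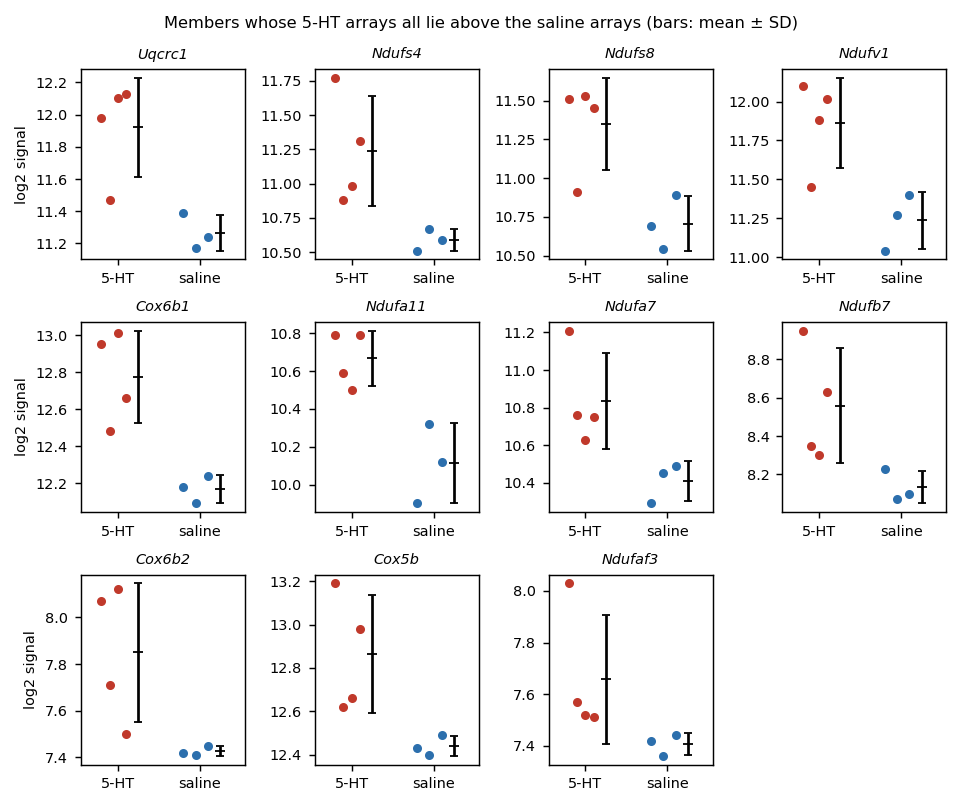
Log2 signal (vertical axes, a scale for each gene) of the 11 members in which all 5-HT arrays (red points, left) lie above all saline arrays (blue points, right), with the mean ± SD of each group in black. The saline points of Cox6b2 lie within 7.41 to 7.45 and its lowest 5-HT point is at 7.50.

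Under the authors' scaling, the arrays did not rank the same way in these genes as in the tested genes as a whole. The median of the 70 members was 11.54, 10.88, 10.82 and 11.24 in 5-HT replicates 1 to 4, against 10.70, 10.63 and 10.66 in saline replicates 1 to 3. The median of all tested genes was 9.44, 8.28, 8.97 and 9.04 in the 5-HT arrays, against 9.0, 8.16 and 8.33 in the saline arrays. Saline replicate 1 thus stood above the other saline arrays over all tested genes but close to them in the members. It was the lowest of the saline arrays in 32 of the 70 members (45.7%), against 11.3% of all tested genes. In the 5-HT group, replicate 3 was the lowest in 31 members (44.3%), against 13% of all tested genes, and replicate 2 in 28 members (40%), against 79.5% of all tested genes. Of all 7 arrays, 5-HT replicate 1 was the highest in 55 of 70 members (78.6%), against 62.8% of all tested genes. Genes within an array are not independent, and these shares are descriptions. Without 5-HT replicate 1, the median log2 fold change was 0.11 in the members and 0.27 in all tested genes, and 48 of 70 members were above 0.

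**Figure D3:**
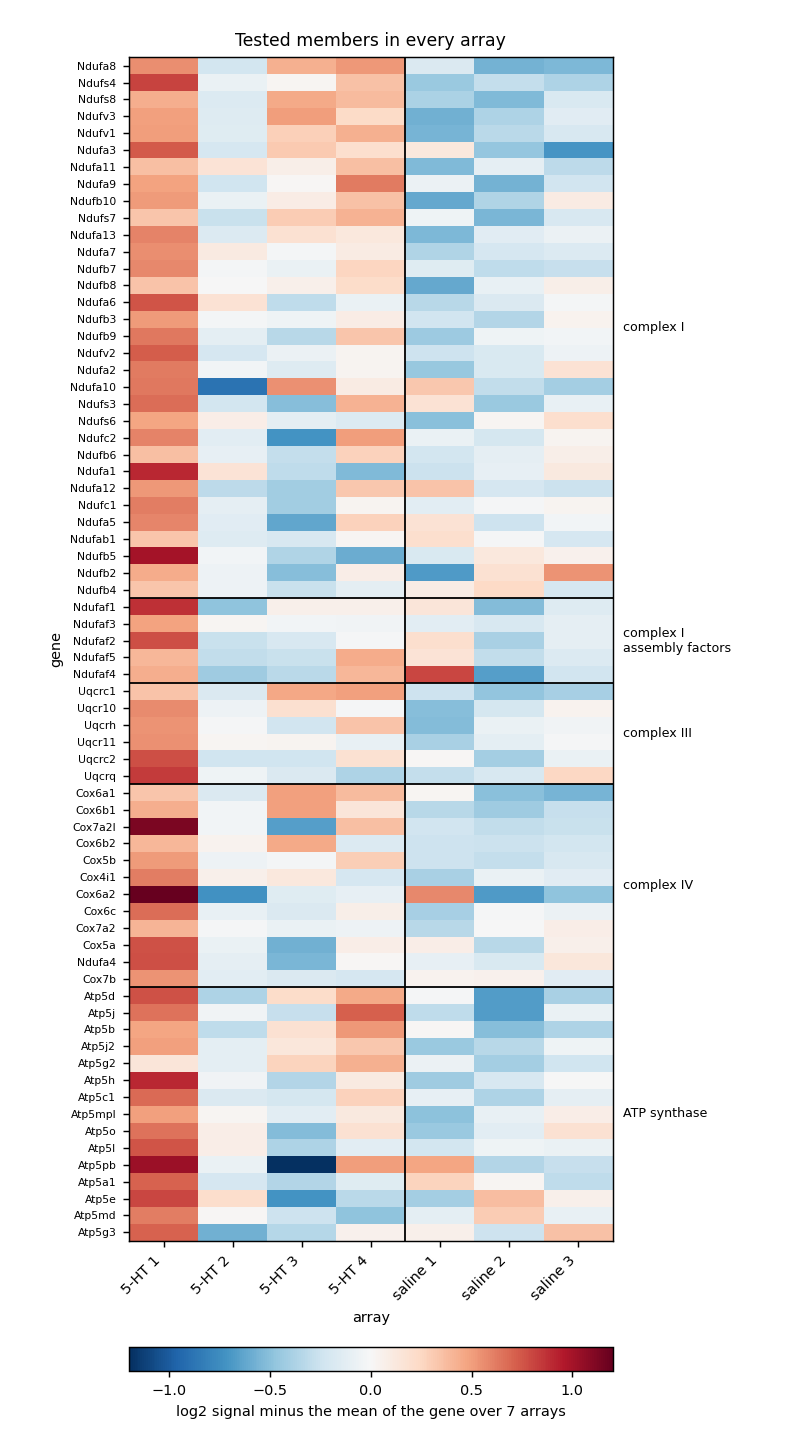
Deposited log2 signal of each tested member minus the mean of that gene over the 7 arrays (color scale), with genes in rows by complex and in order of fold change, and arrays in columns. The column of 5-HT replicate 1 is red throughout, and saline replicate 1 is the lowest saline array in 18 of the 32 rows of complex I.

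**Figure D4:**
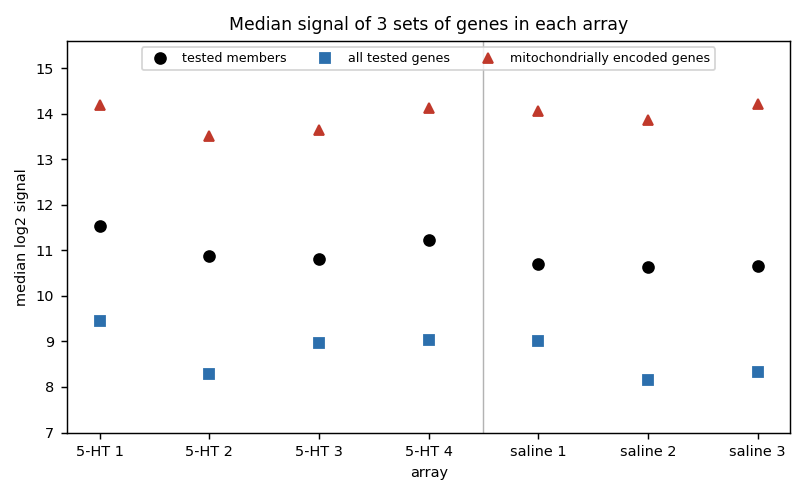
Median log2 signal (vertical axis) of the 70 tested members (circles), of all tested genes (squares) and of 7 mitochondrially encoded genes (triangles) in each array (horizontal axis). In the deposited values shown, the member medians of the 3 saline arrays lie between 10.63 and 10.70, while those of all tested genes lie between 8.16 and 9.0. After quantile normalization (not shown) the saline member medians lay between 10.62 and 11.16.

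The subunits encoded by mitochondrial DNA, which sit in the same complexes, gave other values under the authors' scaling. Of 13 such genes listed, 8 were on the array and 7 were tested. Of the 7, 6 had a log2 fold change below 0, against 8.64% of all tested genes, and their median was -0.15. The mean signals of the 7 ran from 7.54, near the limit of 7.51, to 14.88, beside a maximum of 15.31 over all tested genes. COX2, a catalytic core subunit of complex IV, had 14.20, 13.26, 13.03 and 13.90 in the 5-HT arrays, against 13.99, 13.55 and 14.11 in the saline arrays, a difference of -0.29 on the log2 scale (SE 0.39, adjusted p = 0.663 by limma). ND4L, a membrane subunit of complex I, had 9.51, 7.05, 7.29 and 9.39 in the 5-HT arrays, against 11.08, 7.62 and 8.16 in the saline arrays (log2 fold change -0.64, SE 0.65). Its value without saline replicate 1 was 0.42, of the other sign. The groups overlapped in each of the 7. The difference between mitochondrially and nuclear-encoded subunits was not tested.

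Other nuclear genes of the pathway were read from the same fit, in which 91.4% of all tested genes had a log2 fold change above 0 and the median was 0.42. Of 9 genes of complex II, the electron carriers and cytochrome c1 of complex III (Cyc1), 7 were tested, all with log2 fold changes above 0 and a median of 0.53. Cyc1 itself had 0.53 (SE 0.37), without overlap. Etfb, a subunit of the flavoprotein that feeds electrons from fatty acid oxidation, had 12.88, 12.44, 12.69 and 12.88 in the 5-HT arrays, against 11.96, 12.05 and 12.24 in the saline arrays, without overlap (log2 fold change 0.64, SE 0.36). Sdhb, the iron-sulfur subunit of complex II, had a difference of 0.63 on the log2 scale (SE 0.41). Of 21 further assembly factors, 12 were tested, 11 of them above 0, with a median of 0.32. Bcs1l, which inserts the Rieske protein into complex III, had 9.39, 8.73, 9.02 and 9.22 in the 5-HT arrays, against 8.68, 8.09 and 8.40 in the saline arrays (log2 fold change 0.70, SE 0.37), and Foxred1, a complex I factor, had 0.54.

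Among 6 carriers and channels of the mitochondrial membranes, 5 were tested, all above 0 with a median of 0.14, and the voltage-dependent anion channels Vdac1 and Vdac2 had log2 fold changes of 0.43 and 0.36. Of 13 regulators of mitochondrial biogenesis, 4 were tested, all above 0 with a median of 0.36. Of all tested genes, 91.4% were above 0 and the median was 0.42. Nrf1, a factor whose motif was searched above, had 9.72, 8.73, 9.74 and 9.31 in the 5-HT arrays, against 8.89, 8.41 and 8.58 in the saline arrays. The groups overlapped, with a difference of 0.75 on the log2 scale (SE 0.38, adjusted p = 0.562 by limma). Gabpa and Yy1, whose motifs were also searched, did not pass the limit, with mean signals of 7.01 and 6.61. Esrra, an orphan nuclear receptor, had a log2 fold change of 0.40. In these lists of the pathway limma called 0 genes at an adjusted p under 0.05, and the smallest unadjusted p was 0.0608, for Nrf1.

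Members with several probes allowed a comparison within the gene. For 19 of the tested members, 23 further probes also reached the limit on mean signal. Of these, 19 had a log2 fold change of the same sign as the brightest probe and 4 of the other sign, and the median size of the difference between the probes was 0.14. The second probe of Cox6a1 had a log2 fold change of 0.63, beside 0.61 for the brightest. That of Ndufv3 had 0.48, beside 0.63, and that of Ndufa3 0.54, beside 0.61, with no overlap between the groups in either second probe. The second probe of Ndufa8 had 0.47, beside 0.75, and the 3 further probes of Ndufs4 had 0.42, 0.46 and 0.34, beside 0.65, all with overlapping groups. The probes of the other sign were those of Atp5a1, at -0.46 beside 0.01 for the brightest, of Ndufaf4, at -0.37 beside 0.05, of Ndufa5, at -0.17 beside 0.06, and 1 of Atp5pb, whose further probes had -0.05 and 0.17 beside 0.09. The groups overlapped in all but that of Ndufaf4.

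The 12 members that did not pass the limit include subunits that the complexes need in every tissue. The probe of Ndufs1, the largest core subunit of complex I, lay between 6.41 and 6.66 in the 7 arrays, that of Uqcrfs1, the Rieske protein of complex III, between 6.66 and 6.94, and that of Ndufb11 between 6.70 and 7.09. With values this close to the median of all probes, they were left out of the reported fit. They entered only the alternative without a limit on mean signal. Just inside the limit were Cox6a2, Ndufaf3 and Cox6b2, with mean signals of 7.51, 7.55 and 7.67, and just outside were Ndufaf8, Ndufaf7 and Atp5k, with 7.37, 7.21 and 7.09.

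Of the 70 tested members, 16 (22.9%) had a log2 fold change above 0 in all 17 alternative settings, against 44.8% of all tested genes. The settings include leaving out each array and are not independent. No limit, the wider limit and the trended and robust eBayes leave the fold change of a gene as reported. The replicate block repeats the fold changes found without 5-HT replicate 4. The signs in those settings thus add nothing. Of the 16 members above 0 throughout, 9 were in complex I, 1 in complex III, 2 in complex IV, 4 in the ATP synthase and 0 among the assembly factors. These were Ndufa3, Ndufa8, Ndufa9, Ndufa11, Ndufb10, Ndufs4, Ndufs8, Ndufv1, Ndufv3, Uqcrc1, Cox6a1, Cox6b1, Atp5b, Atp5d, Atp5j and Atp5j2. For Ndufa8 the value ran from 0.25 after cyclic loess normalization to 0.98 with array weights, and for Uqcrc1 from 0.17 to 0.86 in the same settings.

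**Figure D5:**
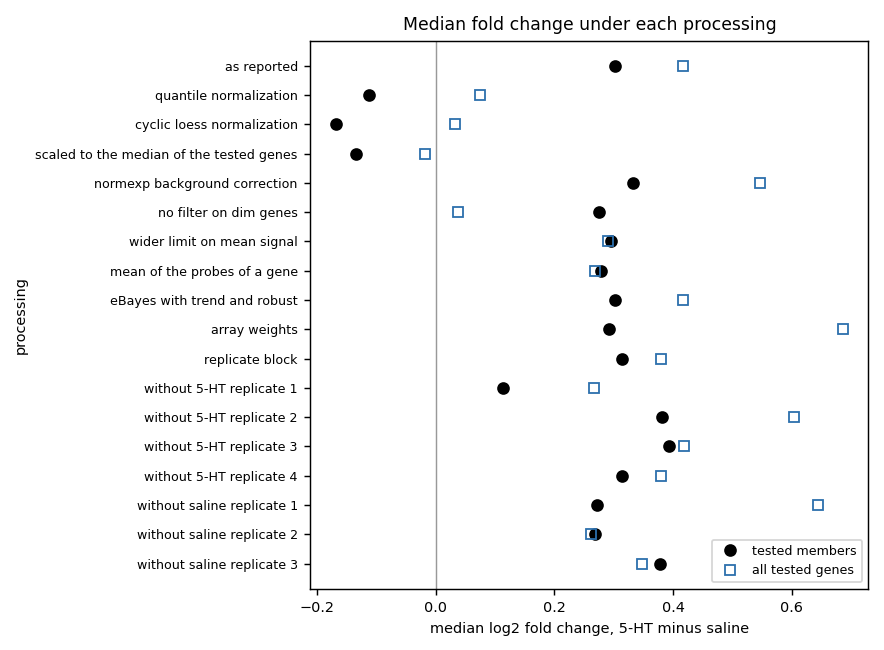
Median log2 fold change (5-HT minus saline, horizontal axis) of the tested members (black points) and of all tested genes (open squares) as reported and under each of 17 alternative settings. The member median is below 0 after quantile normalization (-0.11), cyclic loess (-0.17) and scaling to the tested genes (-0.13), and above 0 in the other settings.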

How the data were processed

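RNA of CD41-selected marrow cells was hybridized to Illumina BeadChips. The deposited values are log2 signals: the authors exported them from GenomeStudio, log-transformed them and shifted each array to a common median. Whether background was subtracted is not given in the sources used here. A further table of signals before normalization was not used, because its 14 value columns carry names that match no sample. Of 45281 probes, 34885 had 1 gene symbol, 18 several and 10378 none. All 82 members matched the RefSeq gene table (GRCm38.p6), with 0 symbols changed. The brightest probe stood for a gene.

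Groups were taken from the sample labels. A linear model with a term for the group alone was fitted with limma 3.58.1 (lmFit, eBayes) under R 4.3.3, giving 18.8 prior and 5 residual degrees of freedom. The p-values were adjusted over all tested genes by Benjamini and Hochberg. The procedure was tested on simulated data in which every gene varied independently. Those data held no shift shared by the genes of an array, so they cannot show how the procedure treats the shifts between these arrays. The number of arrays limits the precision, and the p-values measure only the spread between these pools. Members, lists and alternatives were chosen with earlier results of these data known. Genes were named by rule: in each complex the 3 largest and 2 smallest fold changes, up to 4 members without overlap, isoform pairs, members next to the limit and 2 genes of each pathway list. Of the marker lists only medians, counts, Itgb3, Itga2b, Prg2 and Epx are given. Prg2, Epx, Itga2b, Cyc1, Gabpa, Yy1, Ndufa3, Ndufa5, Ndufa7, Ndufa9, Ndufb7, Ndufb10, Ndufv2, Ndufv3, Ndufs1, Ndufs3, Ndufs7, Ndufb11, Uqcrfs1, Atp5a1, Atp5e, Atp5j2 and Atp5pb were named after their values were seen.

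Alternatives were quantile and cyclic loess normalization, scaling to the tested genes, normexp background correction (offset 16), no limit or a limit at 8000 genes, averaging the probes of each gene, a trended and robust eBayes, weights for arrays, a replicate block, and leaving out each array. Other probes of members were added after the data were seen.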

Additional observations from a re-analysis of the deposited data

Results flagged for a closer look

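In 5 of the 70 tested members 1 of the 4 5-HT arrays lay far from the others relative to the whole range (Dixon's criterion). Cox7a2, Cox7b and Ndufaf3 had a high value in 5-HT replicate 1, at 9.67, 8.43 and 8.03. Ndufa8 and Ndufs8 had a low value in 5-HT replicate 2, at 10.98 and 10.91. Chance gives about 1 in 20 groups, and over all tested genes the share was 6%. Without 5-HT replicate 1 the log2 fold change was 0.03 for Cox7a2, -0.16 for Cox7b and 0.13 for Ndufaf3. Without 5-HT replicate 2 it was 0.93 for Ndufa8 and 0.79 for Ndufs8.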

How the results depend on the processing

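Under the alternatives other than array weights, limma called 0 members at an adjusted p under 0.05. With array weights (0.31 for 5-HT replicate 2 and 0.331 for saline replicate 1, up to 3.22 for 5-HT replicate 4) it called 15 of 70 members, against 60.3% of all tested genes. The estimate of the weights stopped before it converged. The count at an unadjusted p under 0.05 with over 1.5-fold change, 0 as reported, was 15 with array weights (61.7% of all tested genes), 8 of 82 without a limit on mean signal (2.38%), 8 of 74 with the wider limit (6.39%), 5 with the mean of the probes (6.59%) and 1 with trend and robust (6.83%). It was 0 to 10 when an array was left out: 10 without 5-HT replicate 2 (31.2% of all tested genes), 1 without saline replicate 1 (27.6%) and 0 without each other array (0.999% to 3.46%). Deviations from the group means correlated at 0.14, 0.68 and -0.25 between samples numbered 1, 2 and 3, so the numbers were not taken as a pairing. With the replicate block, to which the unpaired 5-HT replicate 4 adds nothing, the count was 6, against 22.9% of all tested genes. The member median became -0.11 after quantile normalization, -0.17 after cyclic loess and -0.13 when scaled to the tested genes, and it was 0.11 to 0.39 when an array was left out. Less the median of all genes it was -0.12, but 0.24 without a limit on mean signal, where the median of all genes was 0.04, and just above 0 with the wider limit (0.0054), the mean of the probes (0.011) and without saline replicate 2 (0.0063) or 3 (0.031). It was lowest with array weights (-0.39), and -0.37 to 0.031 when an array was left out. The value for Prg2 was 1.81 to 2.95 over the 17 alternatives, with an adjusted p of 3.63e-07 to 0.923 that was under 0.05 in 6 of them.

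The sign of a named gene turned in these cases, none of them past a threshold as reported. After quantile normalization the log2 fold changes were Cox4i1 -0.0011, Cox5b -0.012, Vdac1 -0.019, Uqcr10 -0.020, Ndufs7 -0.021, Ndufa7 -0.055, Ndufaf5 -0.067, Ndufaf1 -0.087, Uqcrh -0.092, Vdac2 -0.13, Ndufv2 -0.16, Uqcrc2 -0.20, Ndufs3 -0.22, Ndufaf2 -0.22, Ndufaf4 -0.25, Cox7b -0.26, Cox7a2 -0.27, Uqcrq -0.28, Atp5pb -0.34, Ndufa5 -0.36, Ndufa4 -0.37 and Atp5a1 -0.49. After cyclic loess they were Cox7a2l -0.017, Ndufs7 -0.035, Cox5b -0.042, Vdac1 -0.046, Uqcr10 -0.070, Ndufa7 -0.073, Cox4i1 -0.11, Ndufaf1 -0.11, Ndufaf5 -0.11, Uqcrh -0.13, Vdac2 -0.14, Ndufv2 -0.20, Uqcrc2 -0.22, Ndufs3 -0.26, Ndufaf2 -0.26, Cox7b -0.29, Cox7a2 -0.32, Uqcrq -0.32, Ndufaf4 -0.32, Atp5pb -0.38, Ndufa4 -0.41, Ndufa5 -0.41 and Atp5a1 -0.48. Scaled to the tested genes they were Vdac1 -0.0050, Ndufa7 -0.0083, Ndufb7 -0.012, Cox6b2 -0.013, Cox5b -0.013, Esrra -0.037, Uqcr10 -0.037, Uqcrh -0.065, Vdac2 -0.075, Cox4i1 -0.085, Cox6a2 -0.092, Ndufaf1 -0.13, Ndufv2 -0.15, Uqcrc2 -0.16, Ndufaf3 -0.19, Ndufs3 -0.22, Ndufaf2 -0.26, Ndufaf5 -0.27, Cox7a2 -0.29, Uqcrq -0.30, Atp5pb -0.35, Ndufa4 -0.35, Ndufa5 -0.37, Ndufaf4 -0.39, Cox7b -0.42 and Atp5a1 -0.43. With array weights they were ND4L 0.67, Cox7a2 -0.015, Atp5a1 -0.049, Cox7b -0.11 and Uqcrq -0.14. With the replicate block they were Atp5md 0.093, Atp5e 0.090, Ndufa5 -0.020, Atp5pb -0.067 and Ndufaf4 -0.080. With probes averaged they were Ndufa5 -0.051, Ndufaf4 -0.16 and Atp5a1 -0.22, and in other probes Atp5a1 -0.46, Atp5pb -0.052, Ndufa5 -0.17 and Ndufaf4 -0.37. When an array was left out, the ranges were -0.23 to 0.15 for Atp5a1, -0.29 to 0.22 for Atp5e, -0.34 to 0.087 for Atp5g3, -0.27 to 0.093 for Atp5md, -0.24 to 0.53 for Atp5pb, -0.13 to 0.73 for Cox6a2, -0.16 to 0.090 for Cox7b, -1.31 to 0.42 for ND4L, -0.16 to 0.28 for Ndufa4, -0.12 to 0.28 for Ndufa5, -0.057 to 0.33 for Ndufaf2, -0.27 to 0.46 for Ndufaf4, -0.37 to 0.24 for Ndufb2, -0.20 to 0.025 for Ndufb4 and -0.12 to 0.30 for Uqcrq.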
